A study of Mus musculus with 6 samples.

Results

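The acrosome is the secretory vesicle that caps the sperm nucleus, and 38 mouse genes for its enzymes, matrix, membranes, assembly and underlying skeleton were followed here in whole testis RNA. The genes were taken by symbol from a list of known acrosome genes, by a rule that uses no measured value, although the list was drawn up when earlier results of these data were known. They are 38 of the 53700 gene identifiers in the deposited tables. All 38 had enough reads to be tested, so none was lost to the filter on low counts. The study sequenced total RNA of testes from 3 mice labelled wild type for Msl3 (WT) and 3 labelled as conditional knockouts of a floxed Msl3 allele (cKO), all at postnatal day 45. The labels give the strain Msl3em1Forni/C57BL/6J for the mice of both groups, state no drug or hormone, and name neither the recombinase line nor the deleted exons. The Msl3 protein belongs to a histone acetyltransferase complex first known from fly dosage compensation, and the study asked whether its loss alters spermatogenesis.

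The acrosome is built from Golgi-derived vesicles that dock on the nuclear envelope of round spermatids, fuse, and spread over the nucleus as the spermatid elongates. Its contents include the protease acrosin and hyaluronidases held in a protein matrix, which are released in the acrosome reaction when sperm meet the coat of the egg. Under the vesicle lies the perinuclear theca, a cytoskeletal layer rich in actin-related proteins that anchors the acrosome to the nucleus. Failure of vesicle docking or anchoring gives round-headed sperm without an acrosome, a form of male infertility called globozoospermia.

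The 6 libraries held between 56991431 and 73766444 reads assigned to genes. Msl3, the targeted gene, had 16.0, 18.9 and 15.9 CPM in WT 1, 2 and 3 and 16.0, 14.8 and 15.8 CPM in cKO 1, 2 and 3, with a log2 fold change of -0.12 (95% interval -0.32 to 0.07, edgeR adjusted p = 0.551), so no lowering of its gene count was detected. That count covers all exons, and a deletion of a few exons need not lower it. The groups are therefore named by their labels, and a difference below compares libraries by label, cKO over WT. Of 5 markers of the epididymis, the duct that joins the testis, none reached the filter and no library had more than 12 reads of any of them. All 10 markers of round spermatids and all 11 of elongating spermatids were detected in every library. In bulk tissue, fewer spermatids and less RNA per spermatid cannot be told apart.

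The level of each gene was first compared within the testis, in CPM, the normalised read count scaled to the size of the library, per kilobase of exonic length, so that long and short genes can be set side by side. Crisp2, a cysteine-rich secretory protein of the acrosome and tail, was the highest at 776 CPM per kb and stood at rank 26 of 21853 tested genes of known length. Actl7b and Dkkl1 followed at 524 and 502 CPM per kb. In all, 17 of the 38 genes were above 100 CPM per kb, 19 lay between 10 and 100, and 2 lay below 10. The lowest were Gopc at 3.20 and Pick1 at 2.54 CPM per kb, which encode PDZ-domain trafficking proteins. Crisp2 alone supplied 22.8% of the CPM summed over the 38 genes in WT and 21.2% in cKO.

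**Figure D1:**
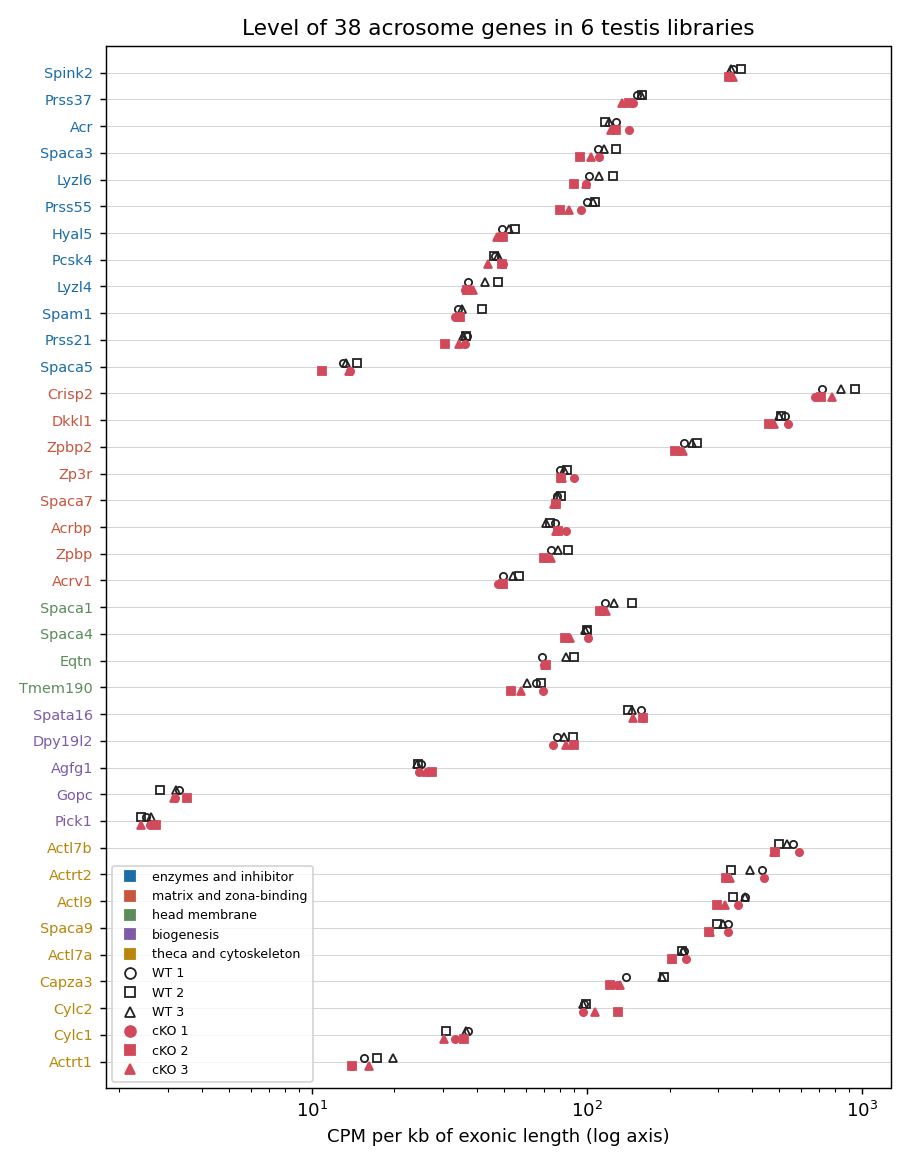
Level of each of the 38 acrosome genes in CPM per kb of exonic length (log axis), with open black symbols for the 3 WT libraries and filled red symbols for the 3 cKO libraries; gene names are coloured by role. Crisp2 is highest at 776 and Pick1 lowest at 2.54 CPM per kb, and within a gene the highest library is at most 1.58 times the lowest.

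Related genes were compared by the ratio of their levels in each library. Zpbp2 was 2.94 to 3.07 times the level of its paralogue Zpbp per kilobase over the 6 libraries. The neighbouring hyaluronidase genes Hyal5 and Spam1, which lie 56948 bp apart on chromosome 6, had a ratio of 1.32 to 1.48. The actin-like genes Actl7b and Actl7a, placed head to head 1969 bp apart on chromosome 4, had a ratio of 2.26 to 2.57. Autosomal genes were higher than their X-linked relatives: Actrt2 was 19.3 to 31.3 times the level of Actrt1, and Spaca3 was 7.54 to 8.71 times that of Spaca5. For the basic head proteins called cylicins, the ratio of Cylc2 to the X-linked Cylc1 was 2.64 to 3.62.

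No acrosome gene passed the test between the groups. At an edgeR quasi-likelihood adjusted p of 0.05, 0 of 38 were called, against 4 of 21902 tested genes (0.0183%), and the adjusted p of the 38 genes ran from 0.276 to 0.996. At an unadjusted p under 0.05 there were 10 of 38 (26.3%), all with lower values in cKO, where 13.9% of all tested genes met that limit and 6.54% did so with lower values in cKO and 7.33% with higher values. The log2 fold change was below 0 for 29 of 38 genes (76.3%), against 49.3% of all tested genes, and the median was -0.10 against 0.00 for all tested genes. The WT and cKO libraries did not overlap for 8 of 38 genes (21.1%), against 18.9% of all tested genes. Of these 8 genes, 7 were lower in cKO (18.4% of the 38, against 8.85% of all tested genes) and 1 was higher (2.63%, against 10%). Among the 10572 tested genes at or above the level of the lowest acrosome gene, 0 were called and 41.0% had lower values in cKO. Of these 10572 genes, 20.6% had an unadjusted p under 0.05, 839 with lower and 1339 with higher values in cKO. The WT and cKO libraries did not overlap for 25.1% of them, 9.70% lower and 15.4% higher. Under at least 1 of 15 alternative settings, 12 acrosome genes, each with a log2 fold change within 0.09 of 0, changed sign, namely Pcsk4, Spaca5, Spink2, Zp3r, Spaca7, Dpy19l2, Pick1, Gopc, Actl7b, Actrt2, Cylc1 and Spaca9. The differences were small: 26 of the 38 genes had a cKO level within 10% of the WT level, and for 25 the 95% interval lay inside 80% to 125% of the WT level.

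**Figure D2:**
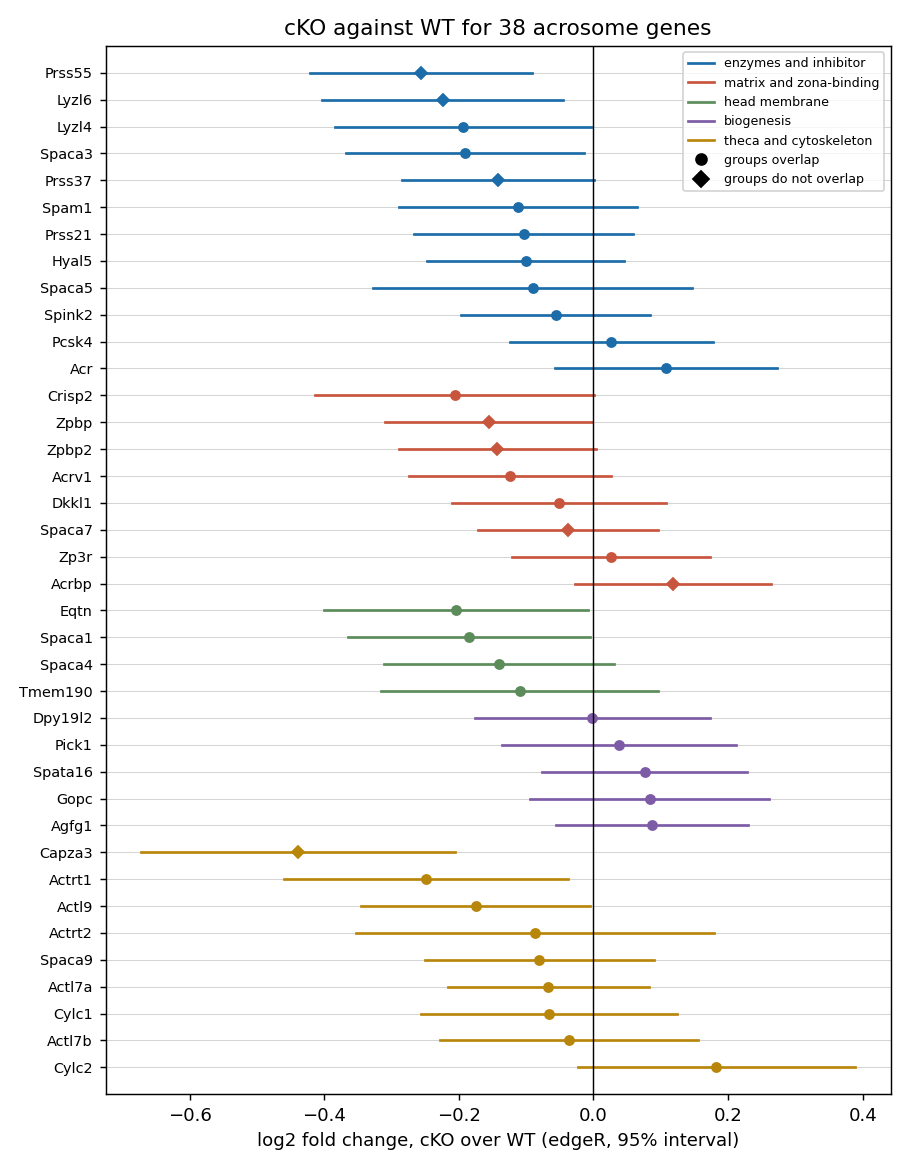
Log2 fold change of cKO over WT for each of the 38 acrosome genes, with lines for the 95% interval of the edgeR fit and colours for the role; diamonds mark genes whose WT and cKO libraries did not overlap. Most points lie left of 0, from -0.44 for Capza3 to 0.18 for Cylc2, and 28 of the 38 intervals include 0.

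The enzymes of the acrosome and their inhibitor formed the group of 12 genes described first, of which 10 had lower values in cKO, with a median log2 fold change of -0.11. Acr (ENSMUSG00000022622, chr15:89568326-89574585) encodes acrosin, the main protease of the vesicle, and had 201, 182 and 188 CPM in WT 1, 2 and 3 and 224, 200.1 and 192 CPM in cKO 1, 2 and 3. The WT and cKO libraries of Acr overlapped, with means of 190.4 ± 9.61 CPM (SD, n = 3) in WT and 205 ± 16.8 CPM (SD, n = 3) in cKO and a log2 fold change of 0.11 (95% interval -0.06 to 0.27, edgeR adjusted p = 0.545). Spam1 (ENSMUSG00000029682, chr6:24791188-24801048) encodes the hyaluronidase PH-20 of the sperm surface and had 75.6, 92.4 and 77.9 CPM in the WT libraries and 73.9, 76.6 and 77.1 CPM in the cKO libraries. Here WT 2 stood above the other 5 libraries, which lay between 73.9 and 77.9 CPM, and the log2 fold change was -0.11 (95% interval -0.29 to 0.07, edgeR adjusted p = 0.561).

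Serine proteases and related proteins came next, and differences among them were not tested. Prss55 (ENSMUSG00000034623, chr14:64075438-64090162), a protease needed for sperm migration, had 141, 150.2 and 148 CPM in the WT libraries and 134, 112 and 121 CPM in the cKO libraries. All 3 cKO libraries lay below all 3 WT libraries, with means of 146 ± 4.68 CPM (SD, n = 3) in WT and 123 ± 10.9 CPM (SD, n = 3) in cKO and a log2 fold change of -0.26 (95% interval -0.42 to -0.09, edgeR adjusted p = 0.288). Leaving out cKO 1, the cKO library closest to WT, gave an edgeR adjusted p of 0.0302 for Prss55, in a fit that called 2.82% of tested genes. Prss37, a protease-like protein with a similar role, had 171, 178 and 177 CPM in the WT libraries and 166, 160.2 and 151 CPM in the cKO libraries. Its groups also did not overlap, at a log2 fold change of -0.14 (95% interval -0.28 to 0.00, edgeR adjusted p = 0.362). Pcsk4, a proprotein convertase, and Prss21, the membrane-anchored protease testisin, had log2 fold changes of 0.03 and -0.10 with overlapping groups.

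Lysozyme-like proteins followed, and all 4 of their genes had lower values in cKO. These genes have under 1.5 kb of exons, a class in which 74.3% of all tested genes had lower values. With a correction for GC content and transcript length in each library, log2 fold changes of Lyzl6, Lyzl4, Spaca3 and Spaca5 were -0.11, -0.13, -0.10 and 0.07. Lyzl6 had 101, 123 and 110.2 CPM in the WT libraries and 98.3, 89.5 and 98.5 CPM in the cKO libraries, without overlap, and a log2 fold change of -0.22 (95% interval -0.40 to -0.05, edgeR adjusted p = 0.306). Lyzl4 had 52.1, 66.9 and 59.6 CPM in the WT libraries and 50.6, 51.5 and 54.1 CPM in the cKO libraries, a log2 fold change of -0.19 (95% interval -0.38 to -0.00, edgeR adjusted p = 0.352), with WT 1 inside the cKO range. Spaca3, a lysozyme-like protein of the acrosome that binds egg-surface sugars, had 104, 121 and 109 CPM in the WT libraries and 105, 89.8 and 98.3 CPM in the cKO libraries. WT 1 and cKO 1 of Spaca3 were nearly level, and the log2 fold change was -0.19 (95% interval -0.37 to -0.01, edgeR adjusted p = 0.334). The X-linked Spaca5 was the rarest enzyme at 8.74 ± 0.565 CPM (SD, n = 3) in WT, with a log2 fold change of -0.09. Hyal5 and Spink2, the latter an inhibitor that keeps acrosomal proteases in check, had log2 fold changes of -0.10 and -0.06 with overlapping groups.

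Matrix and zona-binding proteins were the next group, with lower values in cKO for 6 of 8 genes and a median log2 fold change of -0.09. Acrbp (ENSMUSG00000072770, chr6:125049689-125063267), which binds proacrosin and shapes the granule, was the one acrosome gene whose cKO libraries all lay above the WT libraries, with 252, 240.4 and 233 CPM in the WT libraries and 276, 258 and 252 CPM in the cKO libraries. The margin was very narrow, from 251.7 CPM in WT 1 to 252.3 CPM in cKO 3. The log2 fold change of Acrbp was 0.12 (95% interval -0.03 to 0.26, edgeR adjusted p = 0.447). Zp3r, the matrix protein sp56, had 170.0, 179 and 175 CPM in the WT libraries and 190.0, 171 and 173 CPM in the cKO libraries. The 6 values of Zp3r interleaved, and its log2 fold change was 0.03 (95% interval -0.12 to 0.17, edgeR adjusted p = 0.900).

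The zona pellucida binding proteins Zpbp and Zpbp2, acrosomal proteins that shape the sperm head, had lower values in cKO in parallel. For Zpbp (ENSMUSG00000020193, chr11:11279626-11462408) there were 316, 364 and 334 CPM in the WT libraries and 300.2, 297 and 314 CPM in the cKO libraries. For Zpbp2 (ENSMUSG00000017195, chr11:98551097-98558665) there were 380.5, 424 and 405 CPM in the WT libraries and 365, 353 and 378 CPM in the cKO libraries. In both genes every cKO library lay below every WT library, by a narrow margin of the highest cKO to the lowest WT library. The log2 fold changes were -0.16 (95% interval -0.31 to -0.00, edgeR adjusted p = 0.356) for Zpbp and -0.14 (95% interval -0.29 to 0.00, edgeR adjusted p = 0.370) for Zpbp2. Spaca7, a matrix protein that helps sperm disperse the cumulus, also showed no overlap, but over a very narrow range, with 76.1, 78.7 and 76.4 CPM in the WT libraries and 75.0, 75.8 and 74.4 CPM in the cKO libraries and a log2 fold change of -0.04 (95% interval -0.17 to 0.10, edgeR adjusted p = 0.827). With a correction for GC content and length that of Spaca7 was 0.08. The most abundant gene, Crisp2 (ENSMUSG00000023930, chr17:40764020-40807003), had 2017, 2657 and 2357 CPM in the WT libraries and 1903, 2006 and 2188 CPM in the cKO libraries. WT 1 of Crisp2 lay inside the cKO range, and its log2 fold change was -0.21 (95% interval -0.41 to 0.00, edgeR adjusted p = 0.364). Acrv1, the matrix antigen SP-10, and Dkkl1, an acrosomal protein related to Dickkopf proteins, had log2 fold changes of -0.12 and -0.05 with overlapping groups.

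Promoter sequence was available in the RefSeq table of build GRCm38.p6, which corresponds to the mm10 build named in the submitters' processing notes, for 32 of the 38 genes. Acr, Prss55, Pcsk4, Capza3, Eqtn and Cylc2 were not in it. The 250 bases before each RefSeq start were searched for the cAMP response element, the site of the spermatid activator CREM, as the full site TGACGTCA and the short site TGACG. They were also searched for the X-box motif GTTGCCA of RFX factors, on both strands as for the CRE, and for the TATA box TATAAA on the strand of the gene. A full CRE site contains a short site, and such overlaps count under both. The full CRE site was in 0 of the 32 genes, against 1.77% of 27025 genes in the table. The short site was in 6 of 32 (18.8%, against 19.8%), the X-box motif in 4 of 32 (12.5%, against 4.19%) and the TATA box in 2 of 32 (6.25%, against 8.94%). The short site genes were Acrbp, Gopc, Lyzl4, Spaca1, Spaca3 and Zpbp2, and those with the X-box motif were Actl7b, Actrt1, Pick1 and Spaca9. Crisp2 and Actl9 had the TATA box.

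Shown here are the windows of the 4 genes that were lower in every cKO library, have an entry in the table and whose window overlaps no annotated exon, as 250 bases 5′ to 3′ on the strand of the gene, with any of the searched motifs in capitals. Zpbp lies at chr11:11462420-11462669 on the minus strand, Zpbp2 at chr11:98550847-98551096 on the plus strand, Prss37 at chr6:40519509-40519758 on the minus strand and Lyzl6 at chr11:103638891-103639140 on the minus strand. The single motif among them is the short site of Zpbp2, written CGTCA on this strand, whose first base lies 147 bases before the start.
Zpbp: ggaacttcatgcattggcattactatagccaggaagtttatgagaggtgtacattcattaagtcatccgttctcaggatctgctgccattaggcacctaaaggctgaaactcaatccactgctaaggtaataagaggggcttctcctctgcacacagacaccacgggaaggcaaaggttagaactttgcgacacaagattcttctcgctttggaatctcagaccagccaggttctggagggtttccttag
Zpbp2: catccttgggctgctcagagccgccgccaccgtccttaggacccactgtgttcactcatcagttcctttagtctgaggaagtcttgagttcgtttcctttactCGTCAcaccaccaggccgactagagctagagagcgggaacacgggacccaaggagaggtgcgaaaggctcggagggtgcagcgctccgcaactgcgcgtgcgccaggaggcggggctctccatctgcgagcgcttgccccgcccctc
Prss37: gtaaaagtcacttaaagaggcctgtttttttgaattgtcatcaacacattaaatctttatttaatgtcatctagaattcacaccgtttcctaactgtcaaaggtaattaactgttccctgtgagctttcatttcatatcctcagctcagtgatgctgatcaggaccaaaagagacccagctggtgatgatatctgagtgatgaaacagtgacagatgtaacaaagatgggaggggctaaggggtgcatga
Lyzl6: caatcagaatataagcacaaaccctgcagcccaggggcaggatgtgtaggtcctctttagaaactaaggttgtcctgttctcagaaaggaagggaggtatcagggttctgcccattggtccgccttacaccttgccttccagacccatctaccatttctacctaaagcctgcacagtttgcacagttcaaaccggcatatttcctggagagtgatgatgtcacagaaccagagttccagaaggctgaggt

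All 4 membrane proteins of the sperm head had lower values in cKO, with a median log2 fold change of -0.16. Spaca4, Eqtn and Tmem190 have under 1.5 kb of exons, a class in which 74.3% of all tested genes had lower values. With the GC content and length correction, log2 fold changes of Spaca1, Spaca4, Eqtn and Tmem190 were -0.09, -0.06, -0.06 and -0.02. Spaca1 (ENSMUSG00000028264, chr4:34024874-34050191), an inner acrosomal membrane protein required for acrosome shape, had 186, 233 and 201 CPM in the WT libraries and 179, 179 and 188 CPM in the cKO libraries. The lowest WT library lay just below the highest cKO library, and the log2 fold change was -0.18 (95% interval -0.37 to -0.00, edgeR adjusted p = 0.350). Eqtn, equatorin, a membrane protein of the equatorial region, had 88.7, 116 and 108 CPM in the WT libraries and 89.7, 91.2 and 90.7 CPM in the cKO libraries. The cKO libraries of Eqtn were close together and WT 1 lay below them, with a log2 fold change of -0.20 (95% interval -0.40 to -0.01, edgeR adjusted p = 0.347). Spaca4, a surface protein used in zona binding, and Tmem190, a small membrane protein of the inner acrosome, had log2 fold changes of -0.14 and -0.11, and in both cKO 1 was higher than every WT library.

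Genes that build the acrosome had a median log2 fold change above 0, and whether they differ from the other roles was not tested. Of the 5, 4 had higher values in cKO, 0 had an unadjusted p under 0.05, and the median log2 fold change was 0.08. Dpy19l2, Pick1, Gopc and Agfg1 have 3 kb or more of exons, a class in which 34.4% of all tested genes had lower values. With the GC content and length correction, log2 fold changes of Dpy19l2, Spata16, Pick1, Gopc and Agfg1 were 0.05, 0.12, -0.05, -0.00 and 0.02. Dpy19l2 (ENSMUSG00000085576, chr9:24557047-24696293), an inner nuclear envelope protein that anchors the vesicle and whose loss causes globozoospermia, had 268, 307 and 284 CPM in the WT libraries and 259.9, 309 and 289 CPM in the cKO libraries. Its means were 286 ± 19.7 CPM (SD, n = 3) in WT and 286 ± 24.6 CPM (SD, n = 3) in cKO, and the log2 fold change was -0.00 (95% interval -0.18 to 0.17, edgeR adjusted p = 0.996). Spata16 (ENSMUSG00000039335, chr3:26637620-26983212), a Golgi protein also linked to globozoospermia, had 333, 297 and 309 CPM in the WT libraries and 339, 339 and 312 CPM in the cKO libraries. The groups of Spata16 overlapped, with a log2 fold change of 0.08 (95% interval -0.08 to 0.23, edgeR adjusted p = 0.659). Pick1, which carries vesicles from the Golgi, had 16.4, 15.8 and 17.2 CPM in the WT libraries and 17.0, 17.9 and 15.8 CPM in the cKO libraries and a log2 fold change of 0.04 (95% interval -0.14 to 0.21, edgeR adjusted p = 0.871). Its partner Gopc and the vesicle fusion factor Agfg1 had log2 fold changes of 0.08 and 0.09 with overlapping groups.

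The perinuclear theca and cytoskeleton group held both the lowest and the highest log2 fold change of the 38 genes, with lower values in cKO for 8 of 9 genes and a median log2 fold change of -0.08. Capza3 (ENSMUSG00000041791, chr6:140041252-140042778), which encodes the testis form of an actin capping subunit, had 212, 293 and 287 CPM in WT 1, 2 and 3 and 196, 186 and 202 CPM in cKO 1, 2 and 3. Its cKO libraries all lay below its WT libraries, but WT 1 stood nearer to cKO than to WT 2 and WT 3. The means were 264 ± 45.1 CPM (SD, n = 3) in WT and 195 ± 8.24 CPM (SD, n = 3) in cKO, a cKO level of 73.8% of WT (95% interval 62.8% to 86.7%), and the log2 fold change was -0.44 (95% interval -0.67 to -0.21, edgeR adjusted p = 0.276). Single settings changed that call. The adjusted p of Capza3 was 0.0136 with DESeq2, which called 1.40% of the genes with a defined value. It was 7.3e-06 in edgeR without the filter on low counts, which called 2.07% of genes, and 0.00779 without WT 1, which called 0.518%. With each of the other 5 libraries left out the adjusted p stayed above 0.05.

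Actin-like and actin-related proteins of the theca followed. Actl9 had 518, 469 and 517 CPM in the WT libraries and 487, 409 and 436 CPM in the cKO libraries and a log2 fold change of -0.17 (95% interval -0.35 to -0.00, edgeR adjusted p = 0.350), with cKO 1 inside the WT range. Actrt1, which is X-linked, had 20.8, 23.2 and 26.4 CPM in the WT libraries and 18.8, 18.8 and 21.6 CPM in the cKO libraries. WT 1 of Actrt1 lay inside the cKO range, and the log2 fold change was -0.25 (95% interval -0.46 to -0.04, edgeR adjusted p = 0.313). Actl7a (ENSMUSG00000070979, chr4:56743413-56744925), needed to attach the acrosome to the nucleus, had 341, 335 and 338 CPM in the WT libraries and 348, 309.8 and 309 CPM in the cKO libraries and a log2 fold change of -0.07 (95% interval -0.22 to 0.08, edgeR adjusted p = 0.698). Actl7b and Actrt2 had log2 fold changes of -0.04 and -0.09, with cKO 1 the highest of the 6 libraries in each. Spaca9 and the cylicin Cylc1 had log2 fold changes of -0.08 and -0.07. Cylc2, the other cylicin, went the other way at 0.18 (edgeR adjusted p = 0.405), with 188, 192 and 188 CPM in the WT libraries and 186, 250.4 and 207 CPM in the cKO libraries, and its high values came from cKO 2 and cKO 3. The 3 X-linked genes Actrt1, Cylc1 and Spaca5 had a median log2 fold change of -0.09, and the 35 autosomal genes one of -0.10.

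**Figure D3:**
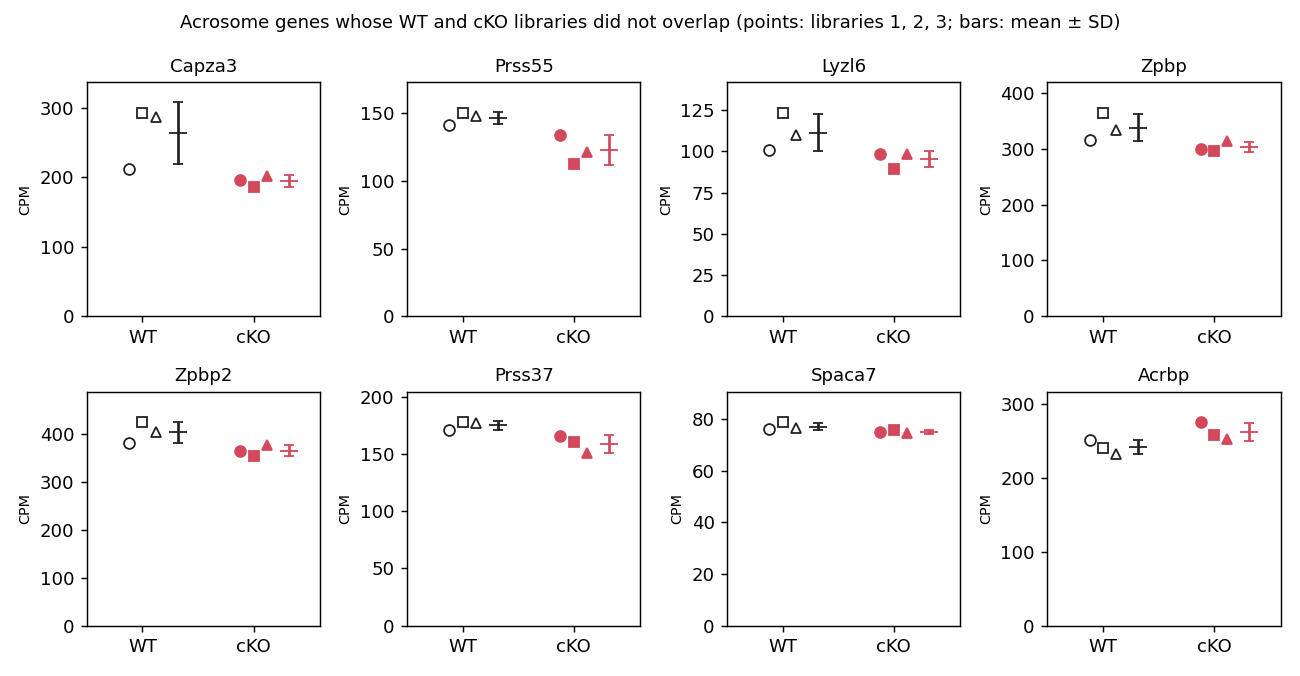
CPM of the 8 acrosome genes whose WT and cKO libraries did not overlap, one panel a gene with the axis from 0, points for libraries 1 to 3 (circle, square, triangle) and bars for the mean ± SD of 3 libraries. Capza3 has the widest gap between means (264 against 195 CPM) and a WT 1 point near the cKO points, and Acrbp alone is higher in cKO.

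The lower values were not spread evenly over the cKO mice. The median over the 38 genes of the log2 ratio to the mean WT level was -0.02, 0.03 and 0.00 in WT 1, 2 and 3 and -0.04, -0.14 and -0.10 in cKO 1, 2 and 3. The cKO libraries thus lay below the WT libraries, cKO 1 by a small step and cKO 2 by the largest. Of the 38 genes, 17 were highest in WT 2, 11 in cKO 1, 6 in cKO 2, 3 in WT 1, 1 in WT 3 and 0 in cKO 3. The lowest library was cKO 2 for 17, cKO 3 for 7, cKO 1 for 6, WT 2 for 4, and WT 1 and WT 3 for 2 each. Such counts over all tested genes are not given here. Their summed share of assigned reads was 0.993%, 1.09% and 1.04% in WT 1, 2 and 3. In cKO 1, 2 and 3 it was 0.977%, 0.918% and 0.955%, so the shares did not overlap. Such a sum is weighted to the most abundant genes, and Crisp2 alone supplied 22.8% of the summed CPM in WT and 21.2% in cKO. Summed CPM overlapped between the groups for the enzyme, matrix, biogenesis and theca roles. For the membrane proteins it did not, by a very narrow margin, at 402.9 to 480 CPM in WT and 375 to 400.4 CPM in cKO. The WT and cKO libraries overlapped for each of the 4 membrane genes taken singly. The median log2 fold change of the 38 genes was -0.05 without cKO 2 and -0.14 without cKO 1. Lists of germ cell markers were read the same way. Round spermatid markers had -0.02, 0.01 and 0.00 in WT 1, 2 and 3 and -0.01, -0.10 and -0.12 in cKO 1, 2 and 3. Elongating spermatid markers had 0.01, -0.11 and 0.07 in WT 1, 2 and 3 and 0.09, -0.15 and -0.02 in cKO 1, 2 and 3. Spermatocyte markers had -0.02, -0.02 and 0.03 in WT 1, 2 and 3 and -0.01, 0.02 and 0.01 in cKO 1, 2 and 3. In the fit, 9 of 10 round spermatid markers, 6 of 11 elongating spermatid markers and 3 of 10 spermatocyte markers had lower values in cKO, with medians of -0.10, -0.03 and 0.05. Their summed levels were 2576 to 2644 CPM in WT and 2391 to 2590.4 CPM in cKO for round spermatids, 21658 to 23958 and 19330.3 to 22892 CPM for elongating spermatids, and 2078 to 2151 and 2152 to 2245 CPM for spermatocytes. The spermatocyte sums did not overlap, and the other sums did. Of the markers of other cells, 7 of 9 for spermatogonia, 7 of 8 for Sertoli cells and 4 of 4 for endothelial cells had higher values in cKO, with medians of 0.09, 0.12 and 0.21. Lower values were found for 5 of 7 Leydig cell, 4 of 5 peritubular myoid cell and 5 of 6 macrophage markers, with medians of -0.14, -0.04 and -0.16. The summed endothelial level was 18.5 to 19.8 CPM in WT and 20.3 to 23.9 CPM in cKO, without overlap. The summed Sertoli level overlapped, at 1336 to 1591 CPM in WT and 1348 to 1723 CPM in cKO, as did the spermatogonial level, at 189 to 219 and 196 to 218 CPM. The part of these cell types in the values of the acrosome genes was not tested.

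**Figure D4:**
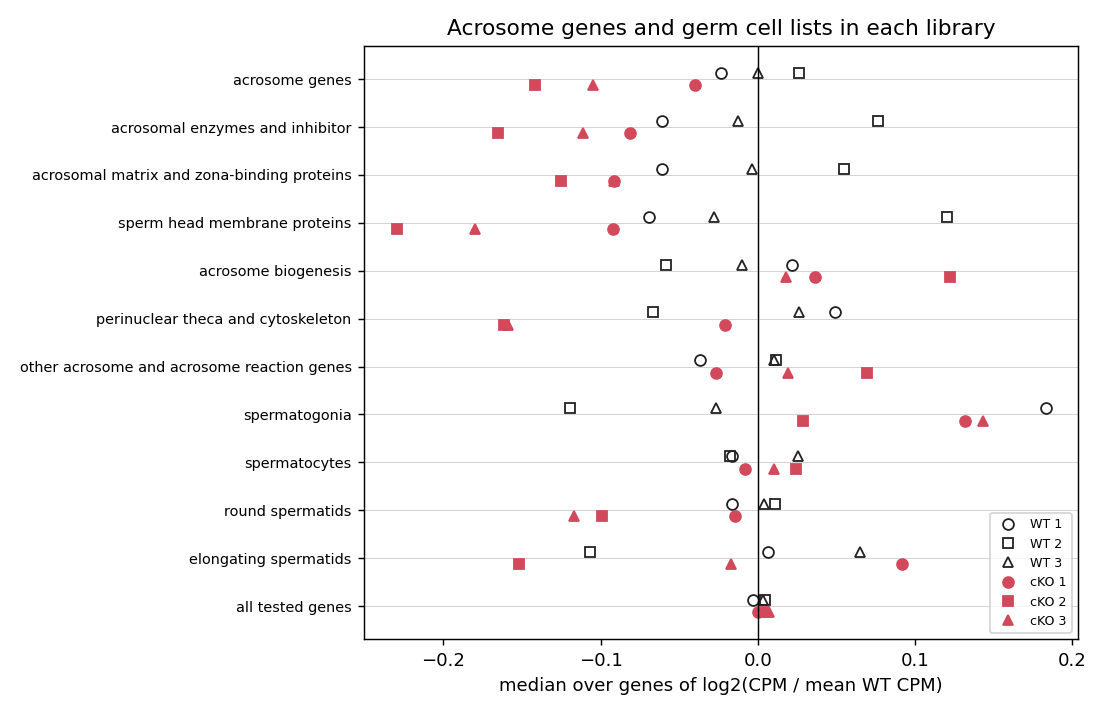
Median over the genes of each list of log2(CPM / mean WT CPM), one point a library, for the 38 acrosome genes, their 5 roles, the other acrosome genes, 4 germ cell marker lists and all tested genes. The acrosome genes and the round spermatid markers are lowest in cKO 2 and cKO 3, at -0.14 and -0.10 and at -0.10 and -0.12, whereas acrosome biogenesis genes are highest in cKO 2 at 0.12.

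Exonic length moved with the difference, among acrosome genes and over all tested genes, and its part in the result was not tested. The 29 acrosome genes with lower values in cKO had a median exonic length of 1435 bp and the 9 with higher values one of 2958 bp. Lower values were found for 16 of 16 acrosome genes under 1.5 kb, 10 of 15 from 1.5 to 3 kb, and 3 of 7 of 3 kb or more. Over all tested genes the same classes had lower values in 74.3%, 59.5% and 34.4%. Median log2 fold changes were -0.14, -0.07 and 0.04 for the acrosome genes and -0.13, -0.03 and 0.06 for all tested genes of these classes. With 1 library left out at a time, 69.0% to 74.4% of all tested genes under 1.5 kb and 34.8% to 36.3% of those of 3 kb or more had lower values. After a correction for GC content and transcript length in each library, the median of the 38 acrosome genes was -0.03, and 26 of 38 had lower values, against 49.8% of all tested genes. In that fit 4 acrosome genes had an unadjusted p under 0.05, against 9.46% of all tested genes. They were Capza3 and Prss55 with log2 fold changes of -0.33 and -0.19, and Acr and Cylc2 with 0.16 and 0.28, and the lowest edgeR adjusted p was 0.326, for Capza3.

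**Figure D5:**
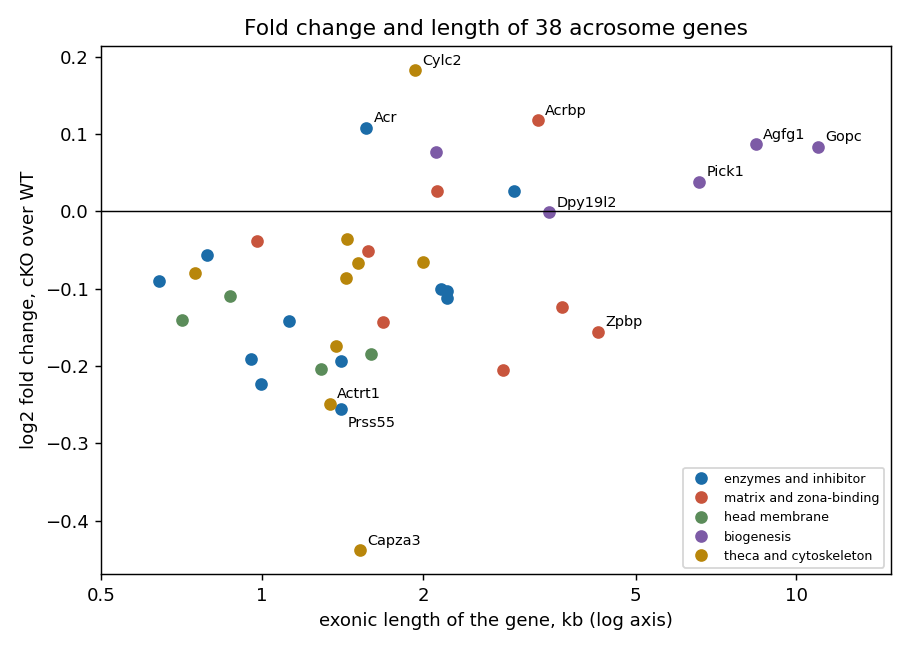
Log2 fold change of cKO over WT against the exonic length in kb (log axis) for the 38 acrosome genes, coloured by role. All 16 genes under 1.5 kb lie below 0, and 4 of the 7 of 3 kb or more lie above it, among them Gopc, Agfg1 and Pick1.

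A wider list of 24 other genes of the acrosome and the acrosome reaction was read in the same fit. Of these, 22 could be tested; Syt6 had at most 5 reads in a library and Syt8 had 0. None was called, 7 of 22 had lower values in cKO, and the median log2 fold change was 0.07, opposite in sign to that of the 38 genes. Most of the 22 have 3 kb or more of exons, a class in which 34.4% of all tested genes had lower values. Those under 1.5 kb, Izumo3, Glipr1l1 and Iqcf1, all had lower values in cKO. The part of length in the opposite sign was not tested. At an unadjusted p under 0.05 there were 7 of 22 (31.8%), 4 lower and 3 higher, against 13.9% of all tested genes, 6.54% lower and 7.33% higher, and 20.6% of those at or above the lowest of the 38 acrosome genes. The lower ones were Iqcf1 and Galntl5, each without overlap between the groups, and Izumo3 and Cd46, with log2 fold changes of -0.24, -0.15, -0.22 and -0.26. Izumo3 is needed to form the acrosome, and Cd46 is an inner acrosomal membrane protein. The higher ones were Zan, Vps13b and Atg7, with log2 fold changes of 0.83, 0.28 and 0.24. Zan encodes zonadhesin, a very large zona-binding matrix protein, and had 18.0, 32.3 and 22.3 CPM in the WT libraries and 22.5, 61.9 and 45.0 CPM in the cKO libraries. Those of Zan in cKO 2 and cKO 3 were above every WT library and that in cKO 1 was within their range, with an edgeR adjusted p of 0.304. Without cKO 1 the edgeR adjusted p was 0.00885 for Zan and 0.0201 for Vps13b, both called, in a fit that called 2.82% of tested genes. With the replicate number as a block it was 0.00810 for Zan, in a fit that called 0.224% of tested genes.

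Overlaps and shared sequence bear on the counts of a few acrosome genes. The gene counts ran from 392 reads for Spaca5 to 172424 for Crisp2 in a library. No 31-base stretch was shared with another gene for 29 of the 38, and more than 1% was shared for 3, namely Acrbp (29.8%, with the overlapping transcript gene Gm44597), Pick1 (19.3%) and Acrv1 (1.37%). Reads in such stretches cannot be given to 1 gene with certainty, so the levels of Acrbp and Pick1 are uncertain. Capza3 overlaps 107 bp of exons of Plcz1 on the opposite strand, and 2.24% of its stranded reads lay on the strand not counted here. Plcz1, the sperm factor that activates the egg, had 285 and 252 CPM on average in WT and cKO and a log2 fold change of -0.18 (edgeR adjusted p = 0.471). Exons of Gm26657 on the opposite strand cover 90.9% of Actl7b, which could not be tested with unstranded counts. Those counts gave lower values for 28 of the 37 other acrosome genes and 0 called.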

How the data were processed

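The authors deposited one table of raw read counts per gene for each of the 6 libraries. The submitters' processing notes name the mm10 build and the tools STAR, HTSeq and DESeq2, and versions and annotation release are not given in the sources used here. The counts of reads on the strand opposite to the gene were used, which held 96.0% to 96.2% of stranded reads. The first 4 lines of a table name no gene, held 14.8% to 16.7% of reads, and were left out. Symbols, lengths and positions came from GENCODE M21 (GRCm38), matched by Ensembl identifier. All libraries were fitted with edgeR 4.0.16 in R 4.3.3: filterByExpr with a minimum count of 10, TMM scaling, its quasi-likelihood test between the groups, and Benjamini-Hochberg adjustment over 21902 tested genes. CPM are scaled by TMM. DESeq2 1.42.0 was an alternative. The procedure was tested on simulated data, with planted changes larger than that of any acrosome gene. That test does not bear on changes as small as those found here. Intervals come from the fitted standard error. The members, lists, motifs and tests were chosen with earlier results of these data known. Values of each library are given for 10 genes fixed by function, genes with an unadjusted p under 0.05 or groups that do not overlap, and the highest and lowest gene per kilobase. The labels call the libraries biological replicates from separate mice. Same-numbered libraries were checked for pairing, which was not taken to hold.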

Additional observations from a re-analysis of the deposited data

How the results depend on the processing

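Across 15 alternatives, which were RLE scaling, library totals alone, no filter, at least 10 reads in every library, a replicate block, unstranded counts, DESeq2, robust quasi-likelihood, a GC content and length correction and 6 fits without a library, 26 to 31 acrosome genes had lower values in cKO. All 38 were tested, except with unstranded counts, where Actl7b could not be and 28 of 37 had lower values. The count called, 0, became 2 without the filter on low counts (Capza3 and Prss55) and 1 with DESeq2 (Capza3), and 0 to 1 without single libraries. The share called over all tested genes was 0.0183% in the main fit, 2.07% without the filter and 1.40% with DESeq2. It was 0.224% with the replicate block and 0.00448% to 2.82% without single libraries. The count at an unadjusted p under 0.05, 10, stood against 13.9% of all tested genes. It became 4 with the GC content and length correction, against 9.46%. Without single libraries it was 2 to 12, the lowest without cKO 2, and the shares over all tested genes in those fits are not given here. The median log2 fold change, -0.0955, became -0.0289 with that correction and -0.143 to -0.0528 without single libraries. Of the other acrosome genes, 2 were called without the filter, 1 with the replicate block and 0 to 2 without single libraries. The shares called over all tested genes, given above, apply beside these counts too. The share of reads held by the 38 genes was 0.987% in WT and 0.898% in cKO with unstranded counts, and 0.875% and 0.803% of all reads, reads outside genes included. Direction turned for 12 of the 38 genes, 9 of them with the correction and 7 without a library, and for 26 it never did. Among those with values given per library, the adjusted p was 0.991 for Zp3r with library totals alone and 0.902 without cKO 1. For Dpy19l2 it turned with the correction (0.845), without WT 2 (0.906) and without cKO 1 (0.740). Spaca7 and Pick1 turned with the correction (0.758 and 0.862), and Pick1 also without cKO 2 (0.990). The cause of these changes was not tested. Of the others, Pcsk4 turned with library totals alone, the correction and without cKO 1 (log2 fold change -0.00, -0.03 and -0.01), Spaca5 with the correction (0.07) and without cKO 2 (0.01), Actrt2 without WT 1 or cKO 2 (0.00 each), and Actl7b without WT 1, cKO 2 or cKO 3 (0.01, 0.01 and 0.02). Spink2, Gopc, Cylc1 and Spaca9 turned with the correction (0.07, -0.00, 0.03 and 0.02). Without single libraries the adjusted p ran from 0.806 to 0.978 for Zp3r, 0.740 to 0.984 for Dpy19l2 and 0.753 to 0.990 for Pick1. Msl3 was not called under any alternative.

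Deviations of same-numbered WT and cKO libraries from their group means correlated at 0.35, 0.26 and -0.05 across genes. Those of different-numbered libraries correlated at -0.34 to 0.11, so the highest values belonged to numbers 1 and 2. Shared numbers were not treated as pairs in the main fit, and whether they mark pairs was not settled. The fit with the replicate block called 0.224% of tested genes, against 0.0183% in the main fit. With the replicate block 0 of the 38 acrosome genes were called and 29 had lower values, with a median of -0.10. With 3 libraries a group the median half-width of the 95% interval of the acrosome genes was 0.170 on the log2 scale, from 0.134 to 0.265, which is the precision of a single gene here.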
